A study of Homo sapiens with 4 samples.

Results

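The genes described are 7 matrix metalloproteinases (MMP1, MMP2, MMP3, MMP9, MMP10, MMP13 and MMP14) and 3 tissue inhibitors of metalloproteinases (TIMP1, TIMP2 and TIMP3). They were chosen by name, 10 of the 26485 gene identifiers in the tables, and each had 1 row in every library. mRNA was sequenced from SW1736 and 8505C, human cell lines derived from anaplastic thyroid cancer, an undifferentiated thyroid carcinoma. Cells of each line received the vehicle DMSO or 1.5 µM DHT, here dihydrotanshinone, a tanshinone of Salvia root, for 24 h, and all were kept in RPMI-1640 medium with fetal bovine serum. The labels give no genotype for either line. Each line and treatment is 1 library, 4 in all, so differences have no replicate error, no p-value is given, and a difference between the lines is one between 2 single cultures.

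Matrix metalloproteinases are zinc-dependent endopeptidases that cut collagens, fibronectin, laminins and other proteins outside the cell. Most are secreted as inactive precursors, whereas MMP14 is held in the cell membrane. TIMPs bind the active site of the proteases, and a low amount of TIMP2 also helps MMP14 to activate the precursor of MMP2. Several of these genes are classic targets of AP-1, the dimer of FOS and JUN proteins, and thyroid cancers have long been examined for them because they open the way through basement membrane.

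Levels are the deposited TPM (transcripts per 1000000), a share scaled by length that allows genes to be compared within a library. Differences between libraries are of log2(TPM + 1), a scale that makes changes of low genes look smaller than they are, and 2-fold means a difference of at least 1 on that scale. They were computed for the 11711 protein-coding genes whose TPM, averaged across the 4 libraries, reached 1. Of the 10 genes, 7 passed this filter, and MMP9, MMP10 and MMP13 did not. MMP1, MMP3 and TIMP3 passed only through their levels in 8505C and so had to differ between the lines. Aligned bases came to between 3.26 Gb (8505C with DMSO) and 4.14 Gb (8505C with DHT). Of 285 genes with 1 exon and under 150 aligned bases, 123 had exactly 100, taken as 1 read, which puts the depth at 32.6 M to 41.4 M reads per library (M, 1000000). Read equivalents quoted below are coverage times the longest GENCODE 29 mRNA of the gene, divided by 100 bases, and are approximate.

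MMP1, the interstitial collagenase that opens fibrillar collagen, separated the lines most (chromosome 11, 102789910 to 102798235, minus strand, hg38). It stood at 6015 TPM in 8505C with DMSO and at 4764 with DHT. The SW1736 library with DMSO listed MMP1 at 0, and the one with DHT had 0.143 TPM. MMP1 was thus the sixth most abundant protein-coding mRNA of 8505C with DMSO (rank 6) and rank 9 with DHT, with 0.602% and 0.476% of all TPM. The SW1736 value with DHT rests on about 5.28 read equivalents, and 3 reads in the SW1736 library with DMSO would have been 0.0947 TPM. On the log2(TPM + 1) scale the lines were 12.55 apart with DMSO and 12.03 apart with DHT, rank 1 of 11711 genes in both comparisons, which share no library. WTAPP1, a pseudogene on the opposite strand that overlaps MMP1 and MMP3, was at 0.427 TPM or less. In bulk RNA, fewer cells of a type and less RNA per cell cannot be told apart. MMP13, the other secreted collagenase among these genes, was listed at 0 in all 4 libraries, where 3 reads would have given between 0.0561 and 0.0775 TPM.

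**Figure D1:**
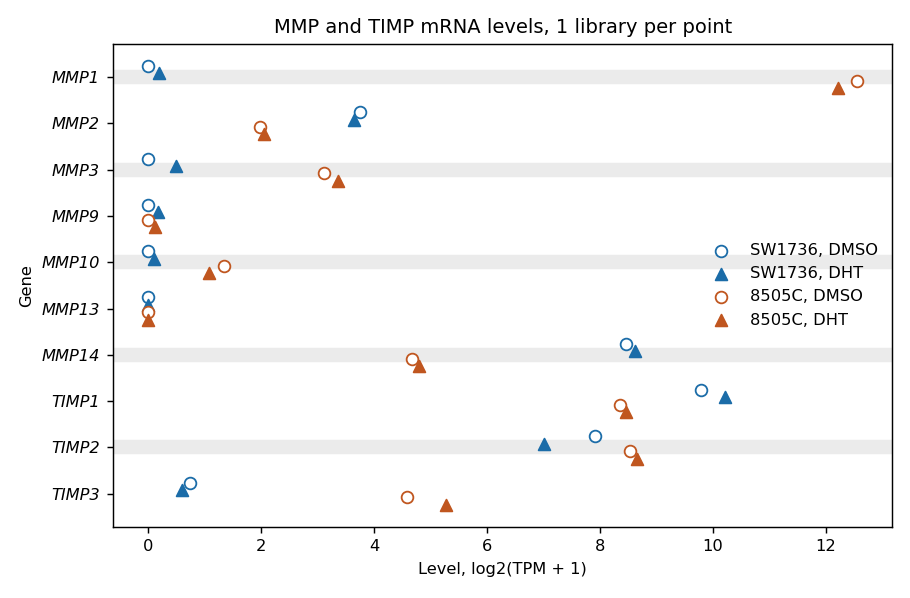
Level of each gene as log2(TPM + 1), 1 point per library, blue for SW1736 and orange for 8505C, open circles for DMSO and filled triangles for DHT. Points of one line lie close together for most genes, whereas MMP1, MMP3 and TIMP3 lie to the right in 8505C and MMP2, MMP14 and TIMP1 in SW1736.

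The stromelysins MMP3 and MMP10, which cut proteoglycans, laminin and fibronectin, had the same order of lines as MMP1 at far lower levels. MMP3 was at 7.63 TPM in 8505C with DMSO and 9.25 with DHT. SW1736 had none listed (0) with DMSO and 0.411 TPM, about 16.3 read equivalents, with DHT. Both 8505C libraries were above both SW1736 libraries. MMP10 was at 1.52 TPM in 8505C with DMSO and 1.10 with DHT (about 38.2 and 35.6 read equivalents), and at 0 and 0.0689 TPM in SW1736, the last from about 2.39 read equivalents. At these depths MMP10 could be placed above SW1736 in both 8505C libraries, but a difference between the 8505C libraries was not detectable.

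The gelatinases MMP2 and MMP9 digest denatured collagen and the type IV collagen of basement membranes. MMP2 (chromosome 16, 55478830 to 55506691) was at 12.5 TPM in SW1736 with DMSO and 11.5 with DHT, and at 2.96 and 3.14 TPM in 8505C. It was thus 4.24-fold lower in 8505C with DMSO and 3.68-fold lower with DHT by the ratio of TPM, log2(TPM + 1) differences of -1.77 and -1.60. The deposited coverage of MMP2 was only 51.0% of what its FPKM implies in each library, against 95.3% to 100.1% for the other genes with reads, so its level relative to other genes is less certain than its ratio between libraries. MMP9 was listed at 0 in both DMSO libraries. With DHT it had 0.128 TPM in SW1736 and 0.0867 TPM in 8505C, from about 5.88 and 3.73 read equivalents.

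MMP14, the membrane-bound collagenase that activates the precursor of MMP2, was the most abundant of the 7 MMP mRNAs in SW1736 (chromosome 14, 22836533 to 22847599, plus strand). It was at 351 TPM in SW1736 with DMSO and 392 with DHT, and at 24.4 and 26.9 TPM in 8505C. The level in 8505C was 14.4-fold lower with DMSO and 14.6-fold lower with DHT, log2(TPM + 1) differences of -3.79 and -3.82, which stand 121 and 124 from the lowest of 11711 genes. MMP14 and MMP1 therefore differed between the lines in opposite directions. MMP14 was 28.0 times as high as MMP2 in SW1736 with DMSO and 8.25 times in 8505C with DMSO, with the reservation on MMP2 above.

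Each of the inhibitors differed in its own way. TIMP1, an inhibitor with growth-promoting activity (chromosome X, 47582291 to 47586791), was at 886 TPM in SW1736 with DMSO, 1196 with DHT, and 327 and 350.1 TPM in 8505C. It was 2.71-fold lower in 8505C with DMSO and 3.41-fold lower with DHT. TIMP2, the partner of MMP14 and MMP2 (chromosome 17, 78852977 to 78925390), was at 241 TPM in SW1736 with DMSO and 128 with DHT, and at 369.8 and 405 TPM in 8505C. It was higher in 8505C in both comparisons, 1.53-fold with DMSO and 3.16-fold with DHT, and past 2-fold only with DHT, where the SW1736 level was lower. TIMP3, which binds the matrix and also inhibits ADAM17 (chromosome 22, 32800816 to 32863041), was at 0.677 and 0.517 TPM in SW1736, about 50.2 and 46.9 read equivalents, and at 23.0 TPM in 8505C with DMSO and 37.6 with DHT. By the ratio of TPM it was 33.9-fold higher in 8505C with DMSO and 72.7-fold higher with DHT. TIMP1 and TIMP3 lie within SYN1 and SYN3 on the opposite strand, and SYN1 was at most 1.25 TPM and SYN3 listed at 0. CEP295NL, inside TIMP2 on the same strand, was at 0.448 TPM or less; whether reads were counted by strand is not given in the sources.

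Promoter sequence was examined to see what these genes share at their start sites. RefSeq promoter sequences (GRCh38.p14, 250 bases before to 50 after the start) were at hand for 4 of the 10 genes, MMP10, MMP14, TIMP1 and TIMP3; MMP1, MMP2, MMP3, MMP9, MMP13 and TIMP2 are named only. All 4 at hand are shown. Of these, MMP14, TIMP1 and TIMP3 differed at least 2-fold between the lines, and MMP10 is the neighbour of MMP1. Capitals mark matches on either strand to the AP-1 motif TGANTCA, to the TATA box TATAAA or to the GC box GGGCGG; no matches overlapped. The windows are chr11:102780579-102780878 on the minus strand, chr14:22836335-22836634, chrX:47582186-47582485 and chr22:32801455-32801754, the last 3 on the plus strand. RefSeq starts MMP14, TIMP1 and TIMP3 inside the genes as the deposited tables place them, and MMP10 at the same base.
MMP10: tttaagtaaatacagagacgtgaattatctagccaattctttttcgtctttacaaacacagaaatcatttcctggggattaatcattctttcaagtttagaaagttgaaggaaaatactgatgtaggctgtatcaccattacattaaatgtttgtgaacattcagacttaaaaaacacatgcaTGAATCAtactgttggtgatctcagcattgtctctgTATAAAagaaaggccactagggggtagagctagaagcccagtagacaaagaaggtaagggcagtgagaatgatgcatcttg
MMP14: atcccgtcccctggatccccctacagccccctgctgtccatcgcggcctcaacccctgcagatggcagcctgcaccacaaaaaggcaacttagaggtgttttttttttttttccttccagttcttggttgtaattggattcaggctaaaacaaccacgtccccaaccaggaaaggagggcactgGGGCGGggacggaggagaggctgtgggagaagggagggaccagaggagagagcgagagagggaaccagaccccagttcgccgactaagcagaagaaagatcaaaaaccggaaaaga
TIMP1: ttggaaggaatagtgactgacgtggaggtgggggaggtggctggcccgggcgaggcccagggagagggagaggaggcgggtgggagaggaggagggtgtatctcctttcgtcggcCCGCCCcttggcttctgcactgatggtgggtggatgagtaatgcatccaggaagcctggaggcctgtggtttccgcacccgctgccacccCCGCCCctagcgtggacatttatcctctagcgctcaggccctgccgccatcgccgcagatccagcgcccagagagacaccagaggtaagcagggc
TIMP3: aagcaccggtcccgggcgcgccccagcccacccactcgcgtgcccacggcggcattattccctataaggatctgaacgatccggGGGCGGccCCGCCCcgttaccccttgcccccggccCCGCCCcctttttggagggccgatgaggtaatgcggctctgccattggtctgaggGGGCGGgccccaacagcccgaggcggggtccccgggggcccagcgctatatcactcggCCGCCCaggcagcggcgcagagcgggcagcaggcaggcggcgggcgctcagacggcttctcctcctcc
MMP10 held 1 AP-1 match (bases -67 to -61 from the start site) and 1 TATA box (-31 to -26) and no GC box. MMP14 held 1 GC box, TIMP1 2 and TIMP3 5, and none of these 3 held the AP-1 or TATA letters. Of 15843 promoters of protein-coding genes, 5.75% held the AP-1 letters, 9.63% the TATA box and 58.5% a GC box. GC content was 36.3% for MMP10, 55% for MMP14, 65% for TIMP1 and 72.7% for TIMP3, beside a median of 62.7% over all promoters. No binding was measured, and a match is only a match of letters.

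Counted together for cells given DMSO, MMP1, MMP3 and TIMP3 were 2-fold or more above SW1736 in 8505C, and MMP2, MMP14 and TIMP1 were 2-fold or more below it, 6 of the 7 genes over the filter. The same thresholds were passed by 9.96% of all genes upward and 12.6% downward. MMP1, MMP3 and TIMP3 passed the filter only through 8505C. Counting them as higher thus says nothing on how often this family differs, with either treatment. Given DHT, TIMP2 joined the genes higher in 8505C, making 4 higher and 3 lower, beside 24.7% and 10.6% of all genes. The median gene was 0.37 higher in 8505C in that comparison, and relative to it TIMP2 was at 1.28, TIMP3 at 4.29, TIMP1 at -2.14 and MMP14 at -4.19. Centred on the median gene, 1702 of all genes were higher and 1901 lower, in place of 2890 and 1244, and with FPKM 1880 and 1333, while the 7 genes kept their side of 2-fold with either scale.

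**Figure D2:**
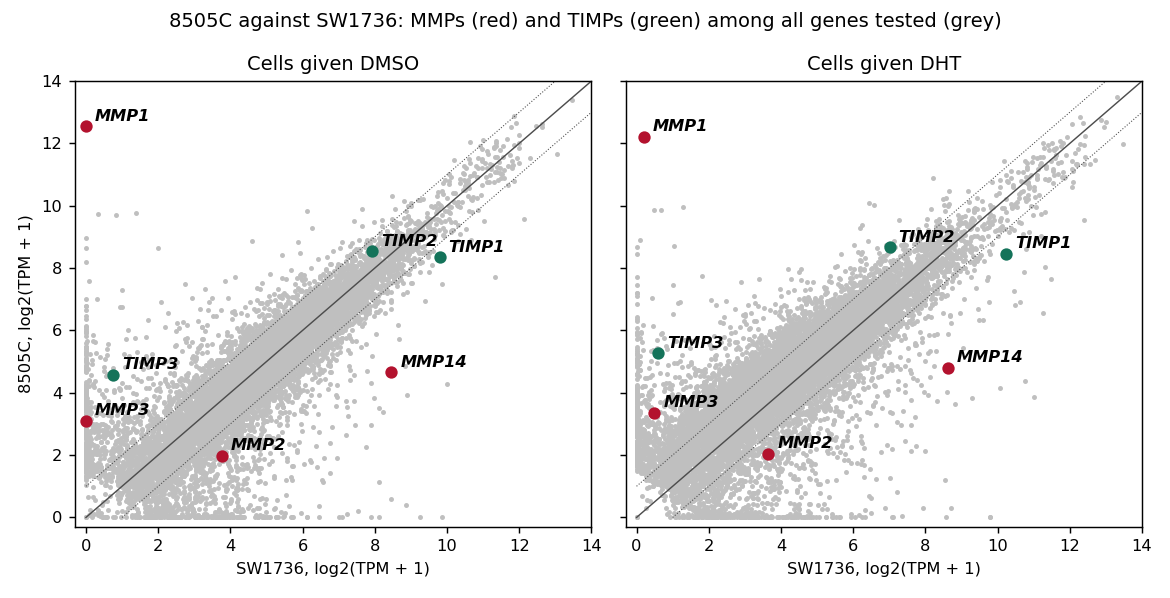
Level in 8505C against level in SW1736 as log2(TPM + 1), with DMSO on the left and DHT on the right, for all genes tested in grey, MMPs in red and TIMPs in green; the solid line marks equal levels and the dotted lines 2-fold. MMP1 lies at the far upper left at 12.55 and 12.03 above the line of equality and MMP14 well below it, while TIMP2 crosses the upper dotted line only with DHT.

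MMP1, MMP3, MMP10 and MMP13 belong to a cluster of 9 MMP genes on chromosome 11, from 102520508 to 102955734 (hg38), a span of 435 kb, all on the minus strand. The levels were uneven along it. In 8505C, 4 neighbouring genes had reads: MMP10, MMP1, MMP3 and MMP12, a macrophage elastase, which was at 0.733 and 0.776 TPM. MMP7, MMP20, MMP27, MMP8 and MMP13, on either side of these 4, were listed at 0 in all 4 libraries. The start sites of MMP10 and MMP3 lie 17.6 kb and 45.4 kb from that of MMP1. In SW1736 all 9 genes were listed at 0 with DMSO, and MMP10, MMP1 and MMP3 had between 0.0689 and 0.411 TPM with DHT.

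**Figure D3:**
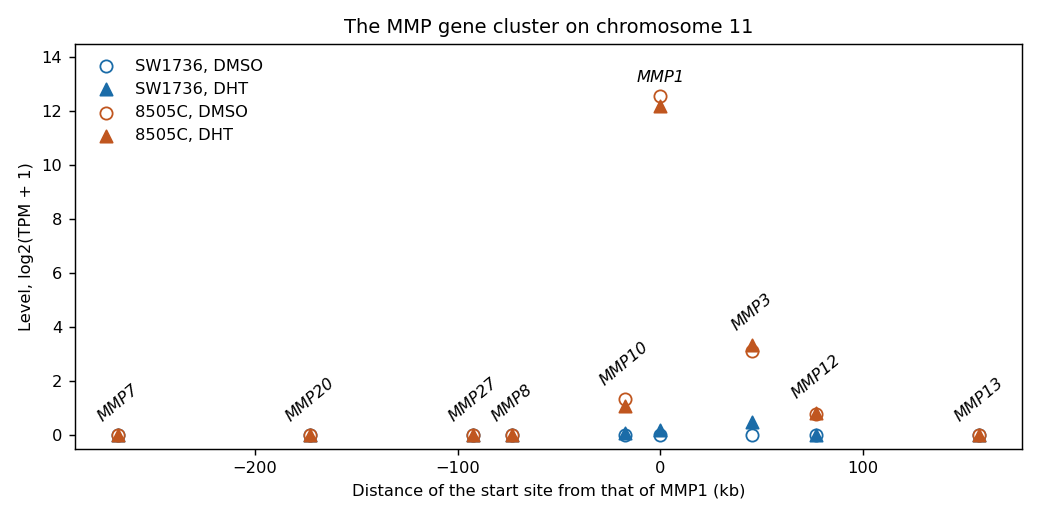
Level as log2(TPM + 1) of the 9 clustered MMP genes against the distance of each start site from that of MMP1 in kb (towards higher coordinates to the right), 1 point per library. In 8505C the points lie above 0 at MMP10, MMP1, MMP3 and MMP12 only, whereas the SW1736 points lie at or near 0 throughout.

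Summing TPM gave the ratio of protease to inhibitor mRNA, without regard to which inhibitor acts on which protease. The 7 MMP genes summed to 364 TPM in SW1736 with DMSO, 405 with DHT, 6052 in 8505C with DMSO and 4804 with DHT. The 3 TIMP genes summed to 1128, 1324, 719.7 and 792 TPM in the same order. MMP per TIMP mRNA was thus 0.322 and 0.306 in SW1736 and 8.41 and 6.06 in 8505C. These sums are carried by single genes: MMP14 made up 96.6% of the MMP sum of SW1736 with DMSO, and MMP1 made up 99.4% of that of 8505C. Without MMP1 and TIMP1 the order of the lines turned round, with 1.50 and 3.15 in SW1736 and 0.0929 and 0.0916 in 8505C. That removal keeps MMP14, the main part of the MMP sum of SW1736, so the reversal follows from the choice of genes left out. TIMP1 was 78.5% of the TIMP sum of SW1736 with DMSO and 90.3% with DHT, while TIMP2 was the larger part in 8505C, 51.4% and 51.1%. TIMP2 stood to MMP14, its partner on the cell surface, at 0.688 in SW1736 with DMSO, 0.326 with DHT, 15.2 in 8505C with DMSO and 15.0 with DHT.

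**Figure D4:**
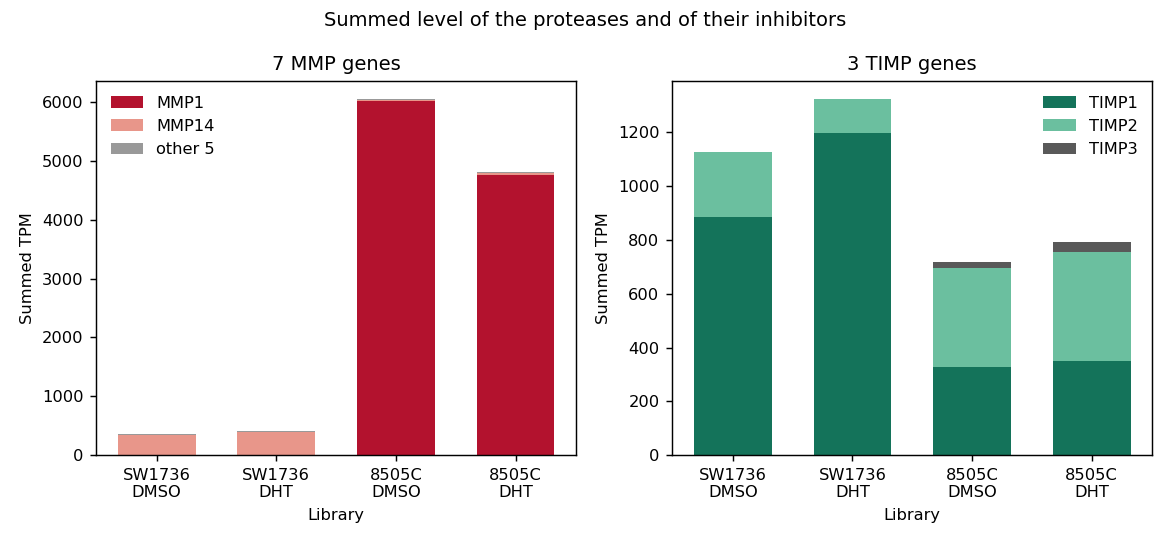
Summed TPM of the 7 MMP genes (left) and the 3 TIMP genes (right) in each library, on linear axes from 0, with bars divided by gene. The MMP bar is nearly all MMP14 in SW1736 and nearly all MMP1 in 8505C, and the TIMP bar of SW1736 is mostly TIMP1.

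The response to DHT was asked next within each line, from the same 4 libraries as the comparison of the lines. In SW1736 none of the 7 genes was 2-fold higher or lower, where 2.78% of all genes were 2-fold higher and 15.6% lower. TIMP2 was nearest, with a difference of -0.91 (241 to 128 TPM), followed by MMP3 at 0.50, TIMP1 at 0.43, MMP1 at 0.19 and MMP14 at 0.16, of which MMP3 and MMP1 were listed at 0 with DMSO. The whole library was displaced, with a median gene at -0.42. Relative to that gene TIMP2 was at -0.49, TIMP1 at 0.85, MMP14 at 0.58, MMP1 at 0.61 and MMP3 at 0.91, while MMP2 (-0.11) and TIMP3 (-0.15) changed sign, to 0.31 and 0.27. Centring changed the split of all genes from 325 higher and 1824 lower to 552 and 497, and FPKM gave 342 and 706. TIMP1 lay above 93.3% of genes and TIMP2 above 19.5%, so the inhibitors of SW1736 lay on either side of the median gene. Of the 5 MMPs listed at 0 with DMSO, 4 had reads with DHT, all but MMP13, as did 19.9% of all 5699 protein-coding genes listed at 0 there. MMP3 had the most of these, and 2.90% of those 5699 genes reached its level.

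8505C differed little with DHT, and here too none of the 7 genes reached 2-fold, beside 0.273% of all genes higher and 0.171% lower. TIMP3 had the widest difference, 0.69 (23.0 to 37.6 TPM, 1.64-fold by the ratio), above 99.2% of genes and rank 94 from the highest. MMP1 was at -0.34 (6015 to 4764 TPM), with 2.07% of genes below it. MMP3 was at 0.25, MMP14 at 0.14, TIMP2 at 0.13, TIMP1 at 0.10 and MMP2 at 0.06. The median gene was at -0.03, and 6 of the 7 genes were above 0.

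**Figure D5:**
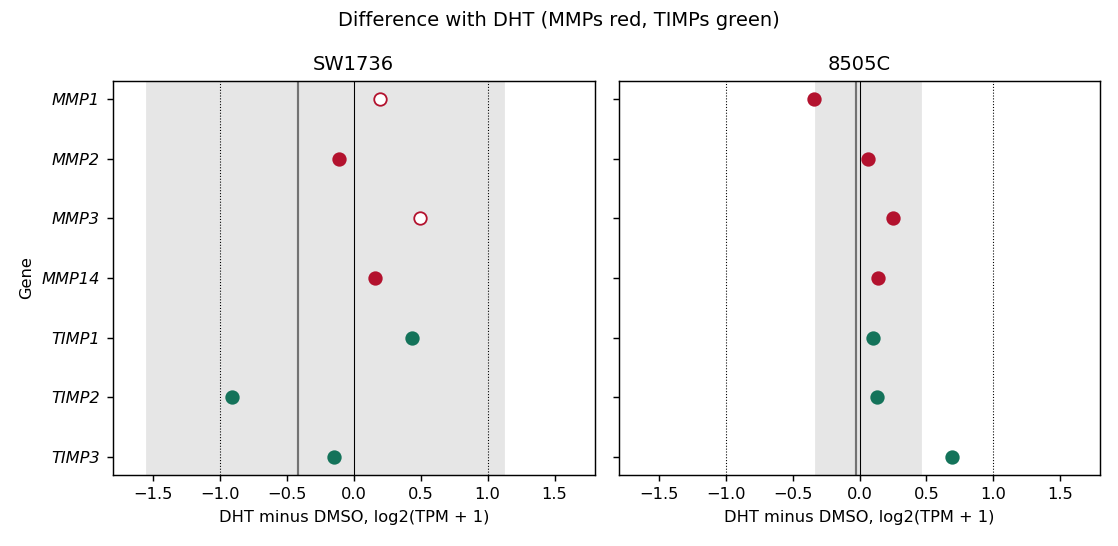
Difference of log2(TPM + 1), DHT minus DMSO, for the 7 genes over the filter in SW1736 (left) and 8505C (right), MMPs in red and TIMPs in green, open where the DMSO library was listed at 0. Grey bands hold the middle 95% of all genes tested, the grey line is the median gene and dotted lines mark 2-fold. All points lie within 2-fold, TIMP2 of SW1736 is the lowest at -0.91, and in 8505C TIMP3 at 0.69 lies to the right of the narrow band and MMP1 at -0.34 just to its left.

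Set side by side, TIMP2 was 1.04 higher in 8505C than in SW1736 in its response (0.13 and -0.91) and TIMP3 0.83 higher (0.69 and -0.15), while MMP1 gave a gap of -0.53 (-0.34 and 0.19). MMP14 was at 0.14 and 0.16 in 8505C and SW1736, and TIMP1 was at 0.10 and 0.43. Relative to the median gene of each line the gap was widest for MMP1 (-0.92) and TIMP1 (-0.72), followed by TIMP2 (0.65), MMP3 (-0.64), TIMP3 (0.44), MMP14 (-0.41) and MMP2 (-0.22), all under 2-fold. MMP1 and MMP3 were listed at 0 in SW1736 with DMSO and could not be lower with DHT, so centring alone raised them there. MMP13, listed at 0 in all libraries, had a centred gap of -0.39, so the order of these gaps partly follows from the floor. These differences were not tested, since each rests on 4 single libraries.

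Other genes of the protease network were read from lists. Of 16 further MMP genes 4 passed the filter. MMP24, a membrane-type protease, was at 13.8 and 8.26 TPM in SW1736 and 0.304 and 0.351 in 8505C, 2-fold lower in 8505C with both treatments. MMP15 and MMP16, also membrane types, were within 2-fold on the log2(TPM + 1) scale in all 4 comparisons. MMP15 was at 8.53, 4.25, 7.42 and 7.14 TPM in SW1736 with DMSO and DHT and in 8505C with DMSO and DHT. Its difference with DHT in SW1736 was -0.86 on that scale, close to 2-fold. Of other inhibitors and clearance receptors, RECK, a membrane-anchored inhibitor of MMPs, was 2-fold higher in 8505C in both comparisons (15.0 TPM against 6.53 with DMSO). SERPINA1, an elastase inhibitor, was at 17.6 and 39.0 TPM in SW1736 with DMSO and DHT, 2-fold higher with DHT, and at 0.496 and 0.564 TPM in 8505C. LRP1, a receptor that clears protease complexes, was the 1 gene of this list 2-fold lower with DHT in SW1736 (7.78 and 2.80 TPM), though not relative to the median gene. It was also 2-fold lower in 8505C with DMSO (-1.11). TFPI2, a serine protease inhibitor of the matrix, was at 184 and 309 TPM in SW1736 and 119 and 127 TPM in 8505C, 2-fold lower in 8505C with DHT only (-1.28). Of all genes, 9.96% were 2-fold higher and 12.6% lower in 8505C with DMSO, and 24.7% and 10.6% with DHT. In SW1736 with DHT 2.78% were higher and 15.6% lower.

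The plasminogen system, whose protease plasmin can activate MMP precursors, had 7 of 10 genes over the filter. PLAU, the urokinase, had 136 TPM in SW1736 and 459.8 TPM in 8505C with DMSO, and its log2 difference with DHT was 0.03 in each line. SERPINE2, an inhibitor of urokinase and thrombin, was 2.98 higher in 8505C on the log2 scale. No other gene of this list was 2-fold apart between the lines with DMSO, where 9.96% of all genes were higher and 12.6% lower in 8505C. PLAT, the tissue-type activator, had 177 and 269.7 TPM. PLAUR, the urokinase receptor, was the only one 2-fold apart from DMSO with DHT, in SW1736, at 134 and 373 TPM, beside 2.78% of all genes 2-fold higher there. With DHT it was also 2-fold lower in 8505C than in SW1736 (-1.45). Among 8 measured activators and inducers over the filter none was 2-fold apart with DHT in either line. TSPAN9, a tetraspanin, was the 1 gene 2-fold lower in 8505C with DMSO (25.8 and 10.8 TPM), and BSG, the inducer also called EMMPRIN, had 940.4 TPM in SW1736 and 617 TPM in 8505C with DMSO. CD44, a surface anchor of MMPs, had 539.5 and 319 TPM in the same libraries, and FURIN, which activates the precursor of MMP14, 64.7 and 47.1 TPM. With DHT CD44 was 2-fold lower in 8505C (-1.11).

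The ADAM and ADAMTS proteases, relatives of the MMPs that shed surface proteins or cut proteoglycans, had 12 of 15 genes over the filter. In SW1736 with DHT 4 of them were 2-fold lower (ADAM9, ADAM10, ADAMTS5 and ADAMTS15) and none higher, with a median of -0.63 beside -0.42 over all genes, and relative to the median gene 1 was lower (ADAMTS15). With DMSO 1 was 2-fold higher in 8505C (ADAMTS12) and 3 were lower (ADAM8, ADAM19 and ADAMTS5). Of all genes, 2.78% were higher and 15.6% lower in SW1736 with DHT, and 9.96% higher and 12.6% lower in 8505C against SW1736 with DMSO. ADAMTS12 had 7.92 TPM in SW1736 and 44.4 TPM in 8505C, and ADAMTS5, an aggrecanase, 19.1 and 0.207 TPM. ADAM9 had 165 and 308 TPM, and ADAMTS15 4.71 and 9.48 TPM.

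A list of AP-1, ETS and RUNX factors and CEBPB, a C/EBP factor, all of families that bind MMP promoters, had 16 of 16 genes over the filter. With DHT, 8 were 2-fold higher, CEBPB among them, and 2 lower in SW1736 (8 and none relative to the median gene), and none in 8505C. Of all genes, 2.78% were 2-fold higher and 15.6% lower in SW1736 with DHT. FOS went from 0.840 to 252 TPM, CEBPB from 8.37 to 318, FOSB from 1.78 to 88.6 and JUN from 82.7 to 1575 in SW1736, in the same libraries where MMP1 was at 0 and 0.143 TPM. MMP10, whose promoter holds the AP-1 letters printed above, had 0 and 0.0689 TPM there. In 8505C, where MMP1 was at 6015 and 4764 TPM, FOS was at 3.74 and 3.34 TPM and JUN at 112 and 120.2 TPM. FOSL1, the most abundant gene of the list in 8505C, was at 525 and 602 TPM there. It was higher in SW1736, at 964 TPM with DMSO and 1398 TPM with DHT. Between the lines with DMSO 3 of the list were 2-fold higher in 8505C (FOS, ETS1 and CEBPB, with ETS1 at 40.3 TPM in SW1736 and 133 TPM in 8505C) and 2 were lower (ETS2 and RUNX2). The part of these factors in the MMP levels was not tested. Of 10 cytokine and growth factor genes over the filter, 4 were 2-fold higher and 3 lower in 8505C with DMSO (4 and 2 relative to the median gene), among them AREG (0.305 TPM in SW1736 and 34.5 in 8505C) and LIF (107 and 1.70). Beside both lists, 9.96% of all genes were 2-fold higher and 12.6% lower in 8505C with DMSO. HBEGF, a ligand of the EGF receptor, had 14.1 and 48.05 TPM, and TGFB2 16.9 and 4.06 TPM.

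Among 15 matrix substrates, 3 were 2-fold higher and 6 lower in 8505C with DMSO, beside 9.96% and 12.6% of all genes. COL1A1, a chain of the type I collagen that MMP1 and MMP14 cut, had 349.9 TPM in SW1736 and 0.496 TPM in 8505C, and COL1A2 was at 237 TPM and listed at 0. FN1, fibronectin, was at 2583 and 209.9 TPM, and TNC, tenascin C, at 5.47 and 77.0. With DHT 3 substrates were 2-fold lower in SW1736 (COL1A1, COL4A1 and COL4A2), none relative to the median gene, and COL3A1 was 2-fold higher in 8505C (2.69 and 7.77 TPM). Of all genes, 15.6% were 2-fold lower in SW1736 with DHT and 0.273% higher in 8505C.

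By the distance between centred log2(TPM + 1) profiles over the 4 libraries, which is a description with 4 points, the genes most like MMP1 were CD24, KISS1 and ESM1, at distances of 2.91, 3.29 and 3.40. None of them matched its range. AK5, FN1 and LYPD6B were nearest to MMP14 (0.10, 0.17 and 0.18), and SULF1, ECSCR and DYSF were nearest to TIMP3 (0.10, 0.10 and 0.12).

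Because fibroblasts, endothelial cells and macrophages also make MMPs and TIMPs, their markers were read in the same libraries. Of 10 immune markers 1 passed the filter and the list summed to 1.32 to 3.98 TPM, with PTPRC at 0.0498 or less. Of 10 fibroblast markers 4 passed, and the list summed to 594 and 291 TPM in SW1736 and 7.54 and 13.97 TPM in 8505C, nearly all of it COL1A1 and COL1A2 in SW1736. POSTN was at 4.09 to 7.70 TPM, while PDGFRA and FAP were listed at 0 in all libraries and DCN and LUM were at 0.121 TPM or less. Of 9 endothelial markers 3 passed (CDH5, TIE1 and EGFL7). The list summed to 8.56 and 9.18 TPM in SW1736 and 239.7 and 286 in 8505C, higher in 8505C as were MMP1 and TIMP3. With DHT in 8505C the sum and TIMP3 were higher than with DMSO, whereas MMP1 was lower. KDR was listed at 0 in all libraries and PECAM1 was at 0.207 or less. The part of these genes in the MMP and TIMP levels was not tested. The thyroid label rested on PAX8 and FOXE1 in SW1736 and on NKX2-1 in 8505C, as TSHR was listed at 0 in all libraries and TG was at 0.0587 TPM at most. Of 6 epithelial markers 4 passed the filter: KRT7, KRT8 and KRT18 were at 402.5 TPM or more in each library, and KRT19 was at 607 and 883 TPM in SW1736 and listed at 0 in both 8505C libraries. EPCAM and CDH1 were at 0.184 TPM or less.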

How the data were processed

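The members and gene lists were chosen with earlier results of these data known. Per the labels' protocols, libraries were made from 1 µg of total RNA with the Universal Plus mRNA-Seq kit. Per the submitters' processing notes, bcl2fastq 2.20, StringTie and hg38 were used; not given in the sources used here were the aligner, the annotation, the StringTie version and the use of strand. The authors deposited, per the file headers, TPM, FPKM and mean coverage per gene. Deposited TPM has 1 total in all libraries, so an abundant mRNA such as MMP1 lowers every other share. Deposited FPKM is relative to mapped fragments and length, and deposited coverage is a signal with no scaling by library.

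Rows of one identifier were summed (1420 identifiers in a file at most). Of 26485 identifiers 25371 matched a RefSeq gene (23758 by symbol, 823 by GENCODE 29 name, 790 by synonym), 19038 of them protein-coding. Differences were of log2(TPM + 1), with a filter at a mean of 1 TPM and a threshold of 2-fold, computed with Python 3.11.15, pandas 2.3.3 and numpy 2.4.6 and tested on simulated data. With 1 library per group there was no test. All 10 members were named. From each list the genes named were those with the largest difference at a mean of at least 5 TPM, 4 at most, with the clustered MMPs and the 3 nearest profiles of a gene; LRP1, ADAM8, ADAM10, ADAM19, COL3A1, COL4A1, COL4A2, ETS1, ETS2, RUNX2, FOSL1, the marker genes near 0 and the genes overlapping a member were named after their values were seen. Alternatives were other pseudocounts, filters, FPKM, scaled coverage, median centring, all identifiers, single rows and a 1.5-fold threshold. The levels given for 3 reads mark a floor of detection and do not measure counting error.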

Additional observations from a re-analysis of the deposited data

Results flagged for a closer look

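TIMP2, TIMP3, MMP1 and MMP2 had differences of opposite sign with DHT in the 2 lines on the log2(TPM + 1) scale. Each rests on 1 library per group and was not tested. TIMP2 was lower in SW1736 (-0.91) and slightly higher in 8505C (0.13), 1.04 apart. TIMP3 was at -0.15 and 0.69, 0.83 apart, and its SW1736 value rests on levels under 1 TPM. MMP1 was at 0.19, from a library listed at 0, and -0.34, a gap of -0.53 (8505C minus SW1736). MMP2 was at -0.11 and 0.06, 0.17 apart, and with FPKM in place of TPM it was at 0.09 and 0.06, of the same sign. Relative to the median gene of each line TIMP2 (-0.49 and 0.16) and MMP1 (0.61 and -0.31) were on opposite sides, whereas TIMP3 (0.27 and 0.71) and MMP2 (0.31 and 0.09) were on the same side. For MMP1 the side in SW1736 was fixed in advance, since a gene listed at 0 with DMSO could not fall. MMP13, listed at 0 in both SW1736 libraries, was at 0.42 relative to the median gene there.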

How the results depend on the processing

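No paired analysis was possible because each group is 1 library, and for the same reason no replicate could be left out. Of the alternative counts of genes and summed ratios, 86 stayed near the reported value and 10 did not. Part of this was fixed in advance. Other filters, all identifiers and single rows cannot change the difference of a member, and FPKM cannot change a summed ratio. A 1.5-fold threshold cannot remove a 2-fold call. Only the pseudocounts, FPKM, scaled coverage and median centring could have moved a member across 2-fold. The 6 genes 2-fold apart between the lines with DMSO and the 7 with DHT kept their call in every alternative that tested them; a mean of at least 5 TPM leaves out MMP3, and no filter adds MMP10 with DMSO. In SW1736 with DHT, a pseudocount of 0.1 counted 2 genes 2-fold higher in place of 0, MMP1 (1.28) and MMP3 (2.35), both listed at 0 with DMSO. At 1.5-fold, 1 gene (TIMP2) was lower in SW1736 and 1 (TIMP3) higher in 8505C. The single gene with a 2-fold difference in response between the lines, TIMP2, became 4 with a pseudocount of 0.1 and 0 with FPKM or with median centring. Without MMP1 and TIMP1 the MMP per TIMP ratio was 1.50 and 3.15 in SW1736 with DMSO and DHT, in place of 0.322 and 0.306, and 0.0929 and 0.0916 in 8505C, in place of 8.41 and 6.06. That removal keeps MMP14 in the sum, so the reversal follows from the choice of genes left out. Depth limits MMP9 and MMP13 in all libraries, and MMP1 and MMP10 in SW1736, to a few reads or none.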
